A study of Homo sapiens with 12 samples.

Results

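Chromatin regions that carried an ATAC-seq peak only in oxamate-resistant MIAPaCa2 cells were examined. ATAC-seq uses the Tn5 transposase to insert sequencing adapters into accessible DNA, so a peak marks a stretch of open chromatin. MIAPaCa2 is an established pancreatic ductal adenocarcinoma cell line, and oxamate is an inhibitor of lactate dehydrogenase A (LDHA). The peak lists of 12 libraries were merged where peaks overlapped by at least 1 bp on chromosomes 1 to 22 and X, which gave 178040 regions. Regions were chosen by these peak calls alone: a region was kept if all 6 resistant libraries and 0 of 6 parental libraries had a peak in it. There were 209 such resistant-only regions, 0.117% of all regions. The reverse rule, all 6 parental and 0 resistant libraries, kept 46 parental-only regions, 0.0258% of all.

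The 12 libraries fell into 4 groups of 3 libraries each: parental cells left untreated, parental cells treated with oxamate, resistant cells left untreated and resistant cells treated with oxamate. Resistant cells were polyclonal populations derived from the same line by weeks of continuous culture in oxamate, untreated cells received phosphate-buffered saline, and treatment lasted a day. Nothing states that the 3 libraries of a group came from separate cultures, so p-values measure the spread between these libraries only. KRT8, KRT18 and VIM, which encode keratins and vimentin, had peaks within 1 kb of a gene end in all 12 libraries. Of 9 genes that mark other cell types, COL1A1 had one in 12 libraries, PRSS1 in 1 parental library and the other 7 in none.

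The phenotypes also differed as libraries, and this stands beside every result on the regions. The narrowest peak of a list follows its mean fragment length. It measured 94 to 124 bp in resistant and 67 to 87 bp in parental libraries. Relative depth (shallowest library at 1) had a mean of 1.43 ± 0.423 (SD, n = 3) without and 1.08 ± 0.0688 (SD, n = 3) with oxamate in resistant cells. In parental cells it had a mean of 1.55 ± 0.22 (SD, n = 3) without and 2.27 ± 0.559 (SD, n = 3) with oxamate. Phenotype and these library properties cannot be told apart. A region without a called peak may still hold reads, because the lists give called peaks and not read counts.

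Open chromatin marks promoters, where transcription starts, and enhancers, which lie away from genes or within introns and bind the factors that raise transcription of a gene at a distance. Promoters of genes that all cells use tend to be open in every condition, while regions that differ between states of a cell are more often distal. The resistant-only regions were therefore described by their strength, by the positions of their edges, by the genes and promoters they touched and by their neighbours.

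Of 196 resistant-only regions on chromosomes with a promoter table, 14 (7.14%) overlapped a promoter window, taken from 250 bases before to 50 bases after a transcription start. This is close to the share of all regions (6.92%). The share was 3.74% of regions called in exactly 6 libraries in another pattern and 32.2% of those called in all 6 resistant libraries. The 14 regions touched 16 windows. Of the coding genes with such a window, 8 also had the region within 1 kb of a gene end: TGFBR2, its neighbour LOC105377015, CLDN4, KLHL4, ZBTB42, CIMAP1C, TET3 and CDA. One window each of 5 of these genes is shown, as examples of promoters that had a peak in every resistant library and in no parental library. Sequences are those of RefSeq for GRCh38.p14, written 5′ to 3′ on the strand of the gene, and capitals mark any match to the motifs named after them.

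TGFBR2 (chr3:30606351-30606650, plus strand, 300 bases inside the region): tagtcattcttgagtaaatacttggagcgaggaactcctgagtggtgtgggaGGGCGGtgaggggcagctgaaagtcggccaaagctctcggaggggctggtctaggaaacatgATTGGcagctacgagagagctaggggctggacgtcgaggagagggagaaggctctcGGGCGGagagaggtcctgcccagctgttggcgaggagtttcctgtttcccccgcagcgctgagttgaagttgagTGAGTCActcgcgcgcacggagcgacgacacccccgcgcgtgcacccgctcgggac
CLDN4 (chr7:73830746-73831045, plus strand, 161 bases inside the region): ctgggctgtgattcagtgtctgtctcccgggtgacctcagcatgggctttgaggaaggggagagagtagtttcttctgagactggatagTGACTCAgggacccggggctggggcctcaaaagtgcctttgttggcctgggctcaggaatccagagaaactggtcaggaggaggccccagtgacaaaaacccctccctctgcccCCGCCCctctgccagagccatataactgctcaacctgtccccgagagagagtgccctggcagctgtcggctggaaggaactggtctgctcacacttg
TET3 (chr2:73984660-73984959, plus strand, 300 bases inside the region): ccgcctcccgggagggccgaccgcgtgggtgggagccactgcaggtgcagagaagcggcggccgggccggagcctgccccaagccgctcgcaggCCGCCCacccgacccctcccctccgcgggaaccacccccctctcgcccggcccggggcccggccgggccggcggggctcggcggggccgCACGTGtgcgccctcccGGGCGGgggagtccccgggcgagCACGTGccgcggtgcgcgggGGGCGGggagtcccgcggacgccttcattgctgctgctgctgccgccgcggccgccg
CIMAP1C (chr15:75723791-75724090, plus strand, 225 bases inside the region): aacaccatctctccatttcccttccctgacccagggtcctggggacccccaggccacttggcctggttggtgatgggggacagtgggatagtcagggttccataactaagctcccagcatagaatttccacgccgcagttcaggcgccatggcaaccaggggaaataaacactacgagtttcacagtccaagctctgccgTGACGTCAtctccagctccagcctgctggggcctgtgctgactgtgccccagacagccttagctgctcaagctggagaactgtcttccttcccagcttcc
CDA (chr1:20588847-20589146, plus strand, 254 bases inside the region): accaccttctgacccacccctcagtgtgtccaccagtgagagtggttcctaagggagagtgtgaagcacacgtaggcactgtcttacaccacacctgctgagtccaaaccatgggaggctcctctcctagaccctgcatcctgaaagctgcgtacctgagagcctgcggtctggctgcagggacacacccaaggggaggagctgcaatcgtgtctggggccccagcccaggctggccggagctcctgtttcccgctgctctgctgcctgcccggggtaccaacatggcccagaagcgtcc

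The motifs were the TATA box TATAAA, the CCAAT box CCAAT, the SP1 GC box GGGCGG, the AP-1 site TGACTCA, the E-box CACGTG and the core of the cyclic AMP response element, TGACGT, each on both strands. The GC box was in 8 of the 16 windows and in 45.0% of all 34961 promoter windows. The AP-1 letters were in 2 of the 16 windows (12.5%, against 4.92% of all windows), those of CLDN4 and TGFBR2. In the CLDN4 window they lay upstream of the resistant-only region, and in the TGFBR2 window inside it. Matches were counted over whole windows, also where only a part of a window was inside the region. The E-box was also in 2 windows (12.5%, against 7.27%), the CCAAT box in 4 (against 34.6% of all windows) and the TATA box in 1 (6.25%, against 11.5%). The TGACGT core was in 1 window (6.25%, against 7.97%), that of CIMAP1C, where the matches on both strands overlapped. The CDA window held no match. The median GC content was 58.3% in the 16 windows and 58.7% in all windows. These matches describe letters only, and with 16 windows the shares differ by a few windows.

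In 3 of the regions lay at least a part of a mature microRNA, a short RNA that pairs with messenger RNAs through its seed, bases 2 to 8, given here in capitals. Their sequences are from the RefSeq table of the same build, and no seed was shared.

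hsa-miR-4428 (chr1:237471164-237471185, plus strand): cAAGGAGAcgggaacauggagc
hsa-miR-4437 (chr2:181305593-181305613, minus strand): uGGGCUCAggguacaaagguu
hsa-miR-6124 (chr11:12163692-12163711, plus strand): gGGAAAAGgaagggggagga

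The hsa-miR-4428 gene lay inside RYR2, and the region that held it ran from chr1:237470770-237471189. ATAC-seq gives no level of these RNAs.

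The resistant-only regions were of 2 kinds that could be told apart by the edges of their peaks. In 11 of the 209, the peaks of the 6 libraries started and ended within 10 bp of each other, and in 9 of these all 6 peaks had the same start and the same end to the base. In the other 198 the largest shift of an edge between libraries was 31 to 1974 bp, with a median of 335.5 bp. The 11 regions with fixed edges were 374 to 404 bp wide, whereas the other 198 spanned 136 to 2284 bp with a median of 672.5 bp.

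**Figure D1:**
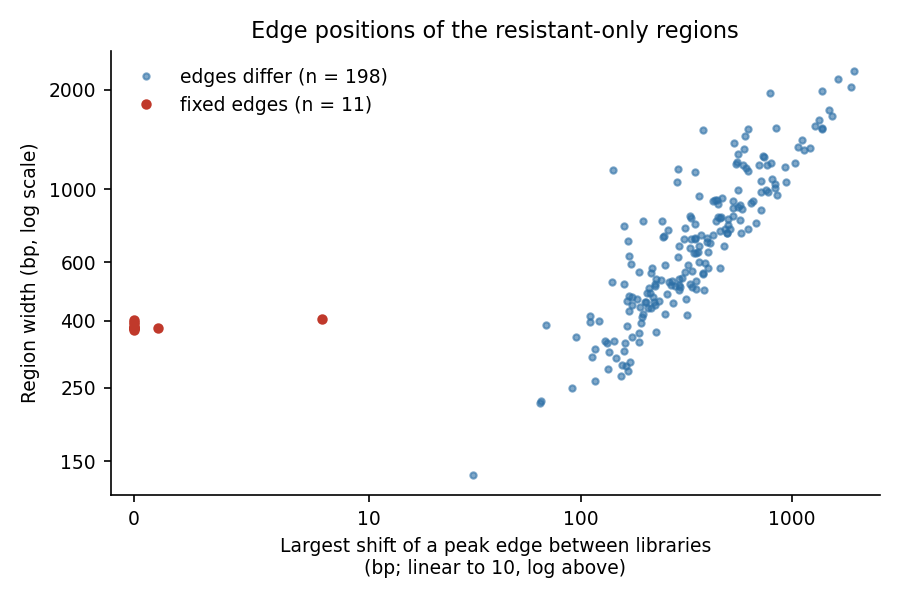
Each point is a resistant-only region, with the largest shift of a peak edge between the 6 resistant libraries (bp, linear to 10 and logarithmic above) against its width (bp, log scale). The 11 regions with fixed edges (red) sit at 0 to 8 bp and at widths of 374 to 404 bp, apart from the other 198 (blue), which start at 31 bp.

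The 11 were also the 11 strongest regions. Strength was ranked by the median, over the 6 resistant lists, of the position of the peak in its own list by −log10 q. The median fold over background of the 11 was 20.5, with a range of 8.35 to 34.9, and they stood in the top 0.0105% to 24.1% of their lists. Fold is the height of a peak over its local background as MACS2 writes it. The other 198 had a median fold of 4.10, with a range of 2.21 to 6.44, and a median position at 63.8% of the list. Of these 198 regions, 173 lay in the weaker part of their lists, below the median peak. The median position was 69.3% for regions called in exactly 6 libraries in another pattern and 78.4% for all regions. It was 31.1% for regions called in all 6 resistant libraries. A −log10 q of at least 3 in all 6 resistant lists was reached by 39 of the 209 regions (18.7%), the 11 with fixed edges and 28 others. In every list that had the region, it was reached by 3.05% of the other regions in exactly 6 libraries and 11.9% of all. The share was 49.7% of regions called in all 6 resistant libraries. Fold and q decide whether a peak is called, so these values are given without a test against parental cells.

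**Figure D2:**
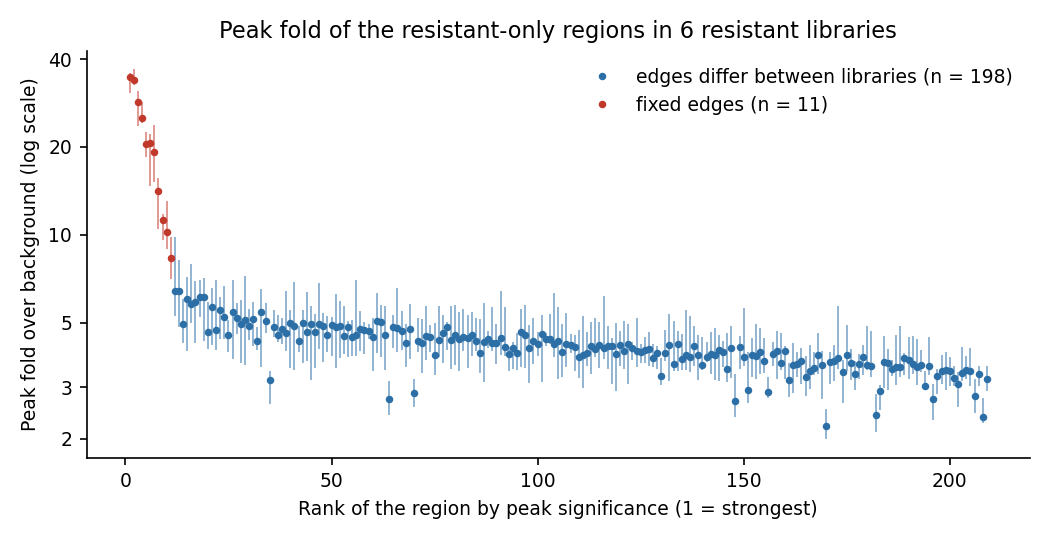
Points are the median fold over background in the 6 resistant libraries (log scale) and lines run from the lowest to the highest library, for the 209 resistant-only regions in order of strength. The fold falls from 34.9 to 8.35 over the 11 regions with fixed edges (red) and then runs between 6.44 and 2.21 over the others (blue).

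The strongest resistant-only region lay inside CTNNB1, which encodes beta-catenin, the transcriptional effector of Wnt signalling and a partner of cadherins at cell junctions. It ran over 380 bp at chr3:41231653-41232032, 8411 bp from the nearer end of the gene (chr3:41199505-41240443). The gene table gives spans without exons, so exons and introns were not separated. The CTNNB1 fold was 30.5, 35.2 and 35.8 in the untreated and 33.2, 34.8 and 34.9 in the treated resistant libraries. The 6 CTNNB1 values lay close together with overlapping treated and untreated ranges, and the nearest parental peak was 11471 bp away.

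The second region, at chr3:7101591-7101970, was inside GRM7, which encodes a metabotropic glutamate receptor of neurons. The GRM7 fold was 32.7, 35.1 and 36.9 in the untreated and 33.4, 34.2 and 33.3 in the treated resistant libraries. These values overlapped as well, and the nearest parental peak lay 336788 bp from the GRM7 region. A region at chr6:124475169-124475572, with a median fold of 20.6, was inside NKAIN2, named for its product's interaction with the sodium pump. Its edges shifted by 8 bp and its nearest parental peak was 59470 bp away.

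Of the 11 regions with fixed edges, 2 lay within 1 kb of the end of a coding gene. The SDHAF3 region, chr7:97181573-97181952, covered the 3′ end of the gene (chr7:97117698-97181763), which encodes an assembly factor of succinate dehydrogenase. The SDHAF3 fold was 19.6, 20.4 and 23.7 in the untreated and 18.0, 15.2 and 18.8 in the treated resistant libraries, so every treated library was below every untreated one. In the treatment fit described below the SDHAF3 difference was −0.23 ± 0.11 (SE, log2, treated minus untreated), with an unadjusted limma p of 0.0624 and an adjusted p of 1.00. The CYP3A43 region, chr7:99866329-99866730, lay 236 bp past the 3′ end of that cytochrome P450 gene. Its fold of 7.06 to 9.80 was the lowest of the 11.

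The remaining 6 regions with fixed edges lay outside coding genes. The region at chr2:193259788-193260166 (median fold 28.4) was 1465 bp from the pseudogene SLC44A3P1. The one at chr2:176029557-176029936 (median fold 25.1) was 26737 bp from LNPK, an endoplasmic reticulum junction gene, which was the nearest coding gene end. The region at chr6:147490864-147491237 (median fold 20.5) was 17453 bp from SAMD5. The last 3 had median folds of 14.1 at chr2:113802824-113803213 (238 bp from LOC105373570), 11.2 at chr18:52120151-52120547 (inside LOC105372121) and 10.2 at chr4:34054210-34054591 (14317 bp from LOC101928622).

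The share of regions with fixed edges differed with the number of parental libraries that had the region. Among regions called in all 6 resistant libraries, 5.26% of those in 0 parental libraries had fixed edges in the resistant lists, against 0.594% of all 32161. The share was 1.01% of 296 regions with 1 parental library, 1.56% of 1151 with 3, and 0.547% of 24148 with 6. The median width of the regions with fixed edges was 380 bp with 0 parental libraries, 416 bp with 1, 358 bp with 2, 334 bp with 3 and 209.5 bp with 6, so it was not highest in the resistant-only regions. Regions with fixed edges close to the 374 to 404 bp of the 11 did have parental peaks, at 415 to 417 bp in 1 parental library (3 regions) and at 347 to 368 bp in 2 (7 regions). Of the 323 regions called in 5 resistant and 0 parental libraries, 4.95% had fixed edges in the lists that had them, near the share of the resistant-only regions. Edges and calls come from the same peaks, so these shares are given without a test.

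Width was also compared over the whole series, in 434 regions with fixed edges in every list that had them and a peak in at least 5 libraries. The 51 regions of 350 bp or more had a peak in 5.29 resistant and 1.22 parental libraries on average, and 27 of the 51 were in no parental library. The 60 regions narrower than 120 bp had a peak in 1.77 resistant and 5.57 parental libraries, and 20 of the 60 were in no resistant library. Intermediate widths lay in between, with 4.37 resistant and 5.33 parental libraries from 120 to under 300 bp and 4.87 and 3.46 from 300 to under 350 bp. The 434 include the 11 resistant-only and 14 parental-only regions with fixed edges, so these means rest in part on the calls that the rules used. With at least 5 libraries required, a region in no parental library had a peak in at least 5 resistant ones. Within these limits, the width of a region with fixed edges moved with the phenotype in the same direction as the fragment length of the libraries. The part of fragment length in these calls was not tested.

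**Figure D3:**
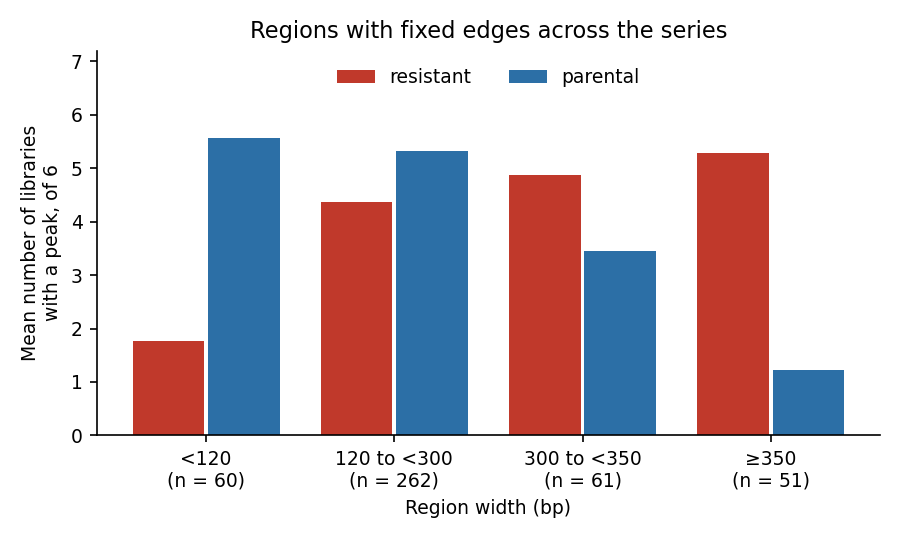
Bars give the mean number of resistant (red) and parental (blue) libraries, of 6 each, with a peak in regions with fixed edges, by region width (bp), with the number of regions under each pair. Resistant libraries go from 1.77 to 5.29 and parental ones from 5.57 to 1.22 between the narrowest and the widest class.

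Of the 9 strongest regions without fixed edges, 3 were inside coding genes. MAP3K5, which encodes the stress kinase ASK1, held the best-ranked, chr6:136593775-136594576. The MAP3K5 fold was 5.96, 5.91 and 7.00 in the untreated and 6.92, 5.25 and 9.82 in the treated resistant libraries, with overlapping ranges. A region inside SPAG16, a gene of the sperm axoneme, at chr2:214069307-214069634 had a fold of 3.98 to 7.15, and the narrowest of all 209, 136 bp at chr2:204692019-204692154, was inside the polarity gene PARD3B. LINC00504 and LOC105372577, both non-coding, held chr4:14855980-14856761 and chr20:24336775-24337923. The other 4 were outside genes, at chr21:24045876-24046330, chr13:103883164-103883473, chr14:52131771-52132157 and chr12:92551675-92553723, and the one on chromosome 13 was 641854 bp from the nearest parental peak.

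The question of where the regions lay relative to genes was then addressed. Within 1 kb of a gene end were 33 of the 209 (15.8%, exact binomial 95% interval 11.1 to 21.5%), which is close to 16.4% of all regions and 13.9% of the 2881 regions called in exactly 6 libraries in another pattern. It is far from 44.2% of the regions called in all 6 resistant libraries and 51.1% of those called in all 12. Inside a coding gene were 85 regions (40.7%, 33.9 to 47.7%), against 55.0% of all regions and 51.7% of the other regions in exactly 6 libraries. Outside any gene were 93 (44.5%, 37.6 to 51.5%), against 34.1% and 37.5%. The median distance to the nearest coding gene end was 43890 bp, against 20466 bp for the other regions in exactly 6 libraries and 21584.5 bp for all regions. Position was not used by the rule, but regions are not replicates of a condition, so the intervals cover counting error only and no test was made.

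**Figure D4:**
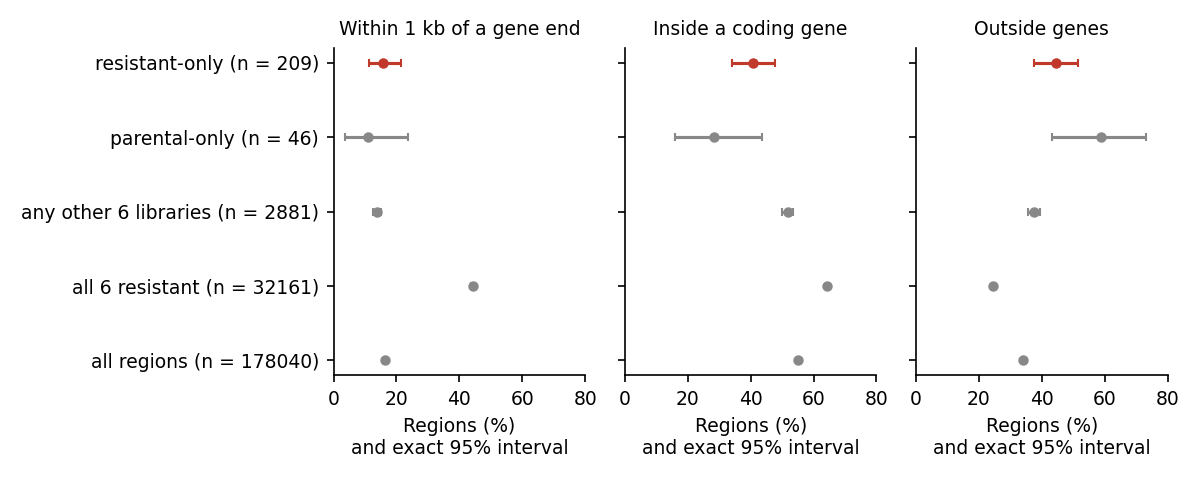
Points are the percentage of regions within 1 kb of a gene end, inside a coding gene or outside genes, and bars are exact binomial 95% intervals, for the resistant-only regions (red) and 4 other sets (grey). The resistant-only regions lie at 15.8%, 40.7% and 44.5%.

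Within 1 kb of a coding gene end were 15 regions (7.18%, 4.07 to 11.6%), against 7.74% of the other regions in exactly 6 libraries and 10.5% of all. Apart from SDHAF3 and CYP3A43 they were all of the kind with variable edges. The strongest was at TGFBR2, which encodes the type II receptor of transforming growth factor beta. The region, chr3:30606296-30607171, covered the start of the gene (chr3:30606356-30694142) and reached both of its promoter windows. It also reached the window of LOC105377015, an overlapping gene on the opposite strand that the table lists as coding. The TGFBR2 fold was 5.29, 3.53 and 6.41 in the untreated and 5.27, 6.51 and 5.57 in the treated resistant libraries. Untreated replicate 2 was the lowest of the TGFBR2 values and treated and untreated libraries overlapped. The nearest parental peak was 574721 bp from the TGFBR2 region.

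CLDN4 encodes claudin-4, a protein of epithelial tight junctions. The 341 bp region chr7:73830885-73831225 covered its start, and the CLDN4 fold was 2.41, 2.86 and 2.59 in the untreated and 2.54, 3.16 and 3.11 in the treated resistant libraries. The treated and untreated CLDN4 values overlapped, the region stood at 55.8% of its lists, and a parental peak lay 2009 bp away. CDA encodes cytidine deaminase, which inactivates cytidine analogues such as gemcitabine. Its region, chr1:20588893-20590097, covered the start of the gene, with a CDA fold of 3.09, 3.09 and 3.58 in the untreated and 3.23, 3.70 and 3.86 in the treated resistant libraries. The CDA values overlapped between treatments, and a parental peak lay 1400 bp from the region. TET3 encodes a dioxygenase that oxidises methylated cytosine. Of its 2 promoter windows the first, in the region chr2:73984242-73985127, had a peak in 6 resistant and 0 parental libraries, and the second had one in all 12.

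The promoters of KLHL4 and ZBTB42, which encode BTB-domain proteins, and of CIMAP1C were also called in 6 resistant and 0 parental libraries, with median folds of 4.17, 3.19 and 3.64. The KLHL4 region was 44629 bp from the nearest parental peak, and the ZBTB42 and CIMAP1C regions were 3044 and 2480 bp from one. Farther than 1 kb from a coding gene end, regions met a promoter window of PCDH15, a protocadherin, and of NPAS3, a neuronal transcription factor. Another 5 met the window of a non-coding gene within 1 kb of that gene's end: LOC105369875, LINC02391, LOC100126584, LOC105379065 and FIRRE. At NPAS3 only 10 bases of the window were inside the region.

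At the other coding gene ends the regions lay outside the promoter windows, where a window was at hand. NFKBIA encodes the inhibitor that holds NF-kappaB in the cytoplasm. The NFKBIA region, chr14:35399064-35401347, was the widest of the 209 at 2284 bp and began 166 bp past the 3′ end of the gene, whose promoter had a peak in all 12 libraries. The NFKBIA fold was 2.56, 2.84 and 3.06 in the untreated and 2.88, 2.86 and 3.21 in the treated resistant libraries, with overlapping ranges. SAP30, a subunit of the Sin3 histone deacetylase complex, had its region 734 bp past the start, with the promoter open in 12 libraries and a parental peak 359 bp from the region. HNRNPDL, an RNA-binding protein gene, had its region over the 3′ end and its promoters open in 12 libraries. APOLD1 had its region 98 bp past the 3′ end, with 1 of 2 promoters open in 12 libraries and the other in none. ADAMTS3, which encodes a procollagen protease, had its region 860 bp inside the start, and its promoter window had no peak in any library. The STC1 region, chr8:23853501-23855058, overlapped an end of the gene of the secreted glycoprotein stanniocalcin-1, for which no promoter window was at hand.

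The coding genes that held a resistant-only region were described by their own promoter and length. Of 71 coding genes that held a region and had a promoter window, 32 (45.1%, 33.2 to 57.3%) had a promoter called in all 12 libraries. The share was 65.9% of 1110 genes holding another region in exactly 6 libraries, 80.7% of 11311 genes holding a region called in all 6 resistant libraries and 57.8% of all 15812 coding genes with a window. The median length of the 71 genes was 194 kb, against 82.5 kb, 33.3 kb and 25.6 kb in these sets. The rule fixed a part of the first share. Where the resistant-only region itself met every window of a gene, as at CLDN4 and KLHL4, that promoter could not be called in all 12 libraries. The regions called in all 6 resistant libraries, in contrast, include promoter peaks called in all 12. A longer gene also has more room for a region, and no test was made.

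Lists of genes of named pathways and families, chosen with earlier results of these data known, were hit by few regions. The lists did not hold every gene of a pathway: MAP3K5 and WNT9B each held a resistant-only region and were on none of them. Of 40 genes of Wnt signalling and cadherin adhesion 1 was hit, CTNNB1, and of 24 glutamate receptor genes 2, GRM7 and GRIN2A, an NMDA receptor subunit (chr16:10079824-10081277, median fold 3.94). Of 28 genes of transforming growth factor beta signalling and mesenchymal transition 1 was hit, TGFBR2. Of 34 calcium and potassium channel genes 2 were hit: RYR2, the cardiac calcium release channel, by the region with hsa-miR-4428 (median fold 5.22), and KCNMA1, the BK potassium channel, at chr10:77376964-77378375 (median fold 3.80). The lists for axon guidance (48 genes), glycolysis and lactate (37), AP-1 factors (16), receptor tyrosine kinases and MAPK (38 of 39 found in the gene table) and ABC transporters (25) were hit by 0 regions. With 209 regions these counts are small: the same lists took between 0.0933% and 0.264% of the regions called in all 6 resistant libraries, and 1 resistant-only region is 0.478%.

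The regions were spread over all 23 chromosomes used. Chromosome 1 held 22, chromosome 3 held 21 and chromosome 6 held 19. Chromosome 3 took 10.0% of the resistant-only regions (exact binomial 95% interval 6.33 to 14.9%), against 6.82% of all regions and 5.75% of those called in all 6 resistant libraries. Chromosome 6 took 9.09% (5.56 to 13.8%), against 5.29% and 5.62%, and chromosome 8 took 6.22% (3.35 to 10.4%), against 3.35% and 3.27%. Chromosome 19 held 3 regions (1.44%, 0.297 to 4.14%), against 4.18% and 5.82%, and chromosome 7 held 9 (4.31%, 1.99 to 8.02%), against 8.35% and 5.23%. These are shares of peaks and not measures of DNA content.

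Few of the regions had another resistant-only region nearby. A neighbour within 100 kb was present for 22 of the 209 (10.5%), against 9.46% within the 296 regions called in 6 resistant and 1 parental library and 7.43% within the 323 called in 5 resistant and 0 parental libraries. Coding genes that held 2 regions were EYS, a photoreceptor gene, NOX3, an NADPH oxidase, HIVEP2, a zinc finger transcription factor, TPD52L1 and DLC1, and the non-coding gene LOC105369902 also held 2. The HIVEP2 pair lay at chr6:142871858-142872203 and chr6:142902458-142903276, with median folds of 4.84 and 4.36, and the DLC1 pair at chr8:13365067-13365691 and chr8:13366790-13367591, with 3.33 and 4.16.

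The largest group held 5 regions within 190913 bp of chromosome 12, chr12:92362811-92553723. It lay among non-coding genes (LINC02391, LOC105369902, LINC02397, LOC105369904 and LOC105369905) between BTG1, an antiproliferative gene 216965 bp from its first region, and PLEKHG7, 149266 bp from its last. The span held 17 regions in all, of which 13 had a peak in more resistant than parental libraries, 3 in more parental libraries and 0 in all 12. Besides the 5, one region was called in 6 resistant and 1 parental library and another in 5 and 0. No region of the span was called in more than 1 parental library. The span was singled out as the largest group, and its makeup is a description.

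**Figure D5:**
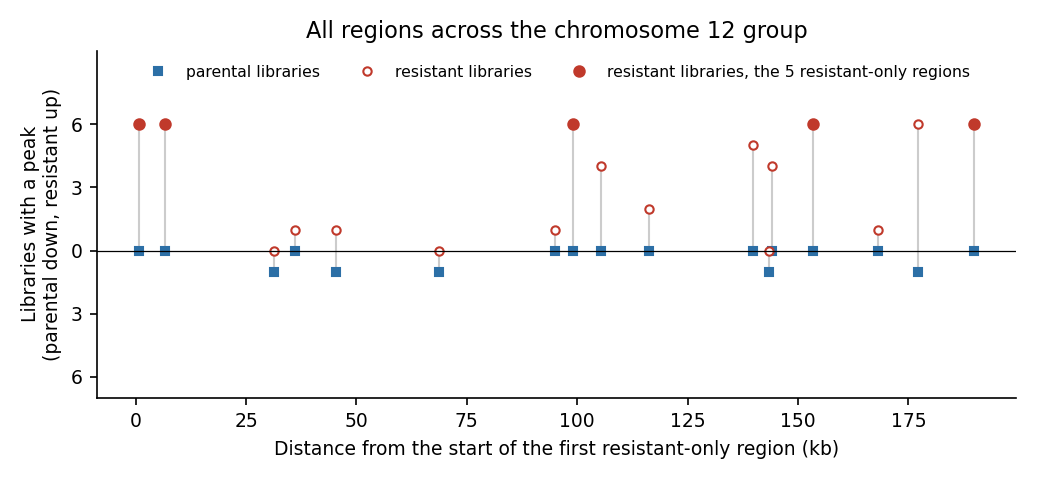
Each of the 17 regions of the chromosome 12 span is placed by its distance from the start of the first resistant-only region (kb), with the number of resistant libraries that called it drawn upwards (red, filled for the 5 resistant-only regions) and of parental libraries downwards (blue). No region was called in more than 1 parental library.

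The rule did not set treated against untreated libraries, so the fold of the resistant-only regions was compared between them. Because the rule required a peak in all 6 resistant libraries, a region whose peak oxamate brought or removed could not be among the 209, and the comparison covers only differences in fold within called peaks. The fold of the strongest peak of each region was compared between 3 treated and 3 untreated resistant libraries with limma, on quantile-normalised log2 values over the 32161 regions called in all 6. At an adjusted p under 0.05, 0 of the 209 regions and 0.0% of the 32161 were called in either direction, and the smallest adjusted p was 1.00. At an unadjusted limma p under 0.05, 15 of the 209 (7.18%) were called, 8 with a higher and 7 with a lower fold in treated libraries, against 4.28% of all regions. The median difference over the 209 was −0.01 on the log2 scale, the differences ranged from −0.43 to 0.38, and their standard errors from 0.10 to 0.18. In simulated data of this design, 200 regions drawn from all 32161 were changed by 1 on the log2 scale, and 74% were recovered. The simulation did not model the loss of a call, and 74% is not the share for the resistant-only regions alone. Smaller changes could have been missed. At TGFBR2 the difference was 0.18 ± 0.18 (SE) and at CTNNB1 it was 0.07 ± 0.10 (SE), neither past the threshold.

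In parental cells the parental-only regions were compared in the same way. At an adjusted limma p under 0.05, 0 of the 46 regions and 0.0% of the 25620 regions called in all 6 parental libraries were called, with a smallest adjusted p of 0.0768. This count depended on the scaling: without normalization 37 regions were higher and 3127 lower in treated libraries, with 3 of the 46 called, all higher, and with median centring 12 were higher and 1 lower, with 1 of the 46 called. At an unadjusted p under 0.05, 19 of the 46 (41.3%) were called, 17 with a higher and 2 with a lower fold in treated libraries, against 12.7% of all regions. Among the 17 were regions very far from genes. One was chr17:24354966-24355060, 1649330 bp from the nearest gene end, with a difference of 0.98 (log2). Another was chr1:123605156-123605454, 2033268 bp away, with 0.44. The part of such places in this share was not tested. The median difference over the 46 was 0.19 on the log2 scale. In the resistant-only regions the corresponding median was −0.01, and a difference between the 2 sets was not tested, since they are different regions in different cells.

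The parental-only regions were fewer, narrower and more often of the kind with fixed edges. Fixed edges were found in 14 of the 46 (30.4%), and the median width was 213.5 bp against 641 bp in the resistant-only regions. Outside genes lay 27 (58.7%), and the median distance of the 46 to the nearest coding gene end was 182902 bp. Chromosome 1 held 10 of them (21.7%, against 10.0% of all regions). Chromosome 17 held 6 (13.0%, against 4.90%). Among them were regions very far from genes, such as chr1:122500030-122500131 and chr1:124737961-124738102, 928142 and 3166073 bp from the nearest gene end. On chromosome 17 such regions included chr17:24354966-24355060 and chr17:26065464-26065593, 1649330 and 916099 bp away. Others on these chromosomes lay inside genes, such as ERRFI1 and GRB7. The part of such far places in these shares and in the median distance was not tested. Of the 46, 15 were narrower than 124 bp, the largest of the 12 smallest peak widths, that is, narrower than any peak of at least 1 resistant list. No resistant-only region could be that narrow, because the rule asked for a peak of resistant untreated replicate 1, the list with that smallest width. The strongest was a 93 bp region inside NKAIN2, chr6:124039778-124039870, with a fold of 38.4 to 44.1 in the parental libraries, a different place in the gene that also held a resistant-only region with fixed edges. The next were inside the kinase gene MOK at chr14:102298352-102298477 (36.6 to 47.3), at chr21:10655259-10655635 (14.0 to 20.4), inside the ATPase gene OLA1 at chr2:174227583-174227845 (20.4 to 29.2) and at chr9:11405827-11405919 (15.4 to 27.7).

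Near the threshold of the rule, regions called in 5 resistant and 0 parental libraries numbered 323, and the 2 strongest also had fixed edges. They were chr6:100887455-100887879, 425 bp wide with a fold of 31.2 to 35.9, and chr2:76638426-76638828, 403 bp wide with 29.4 to 34.7, and both lacked a peak in resistant treated replicate 2. Of 296 regions called in 6 resistant and 1 parental library, the strongest 2 were chr8:46830618-46831033, 416 bp wide and found in parental untreated replicate 2, and chr13:104571353-104571918, found in parental treated replicate 2. Just inside the rule, the 2 weakest resistant-only regions were chr1:173862241-173862778, 470 bp from GAS5-AS1, with a fold of 2.26 to 2.77, and chr10:31886788-31887822 inside ARHGAP12, with 2.92 to 3.54. Both weak regions had a smallest −log10 q of 1.19 in the resistant lists, whose lowest value was 1.00.

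How far the set depended on the calls was examined by repeating the rule. When a peak needed a −log10 q of 3 or more, the rule kept 279 regions. These included 39 of the 209 (18.7%), which made up 14.0% of the 279. With a library counted only where its peaks covered at least 50% of a region, 309 regions were kept and 38 of the 209 were found again. With the same number of best-ranked peaks per list, 251 were kept and 138 of the 209 were found again. The 11 regions with fixed edges were found again under each of these 3 settings, which their own traits decided beforehand. Their −log10 q was 8.91 or more in every resistant list, they ranked high, and their peaks covered nearly the whole region. Of the other 198 regions, 28, 27 and 127 were found again. Leaving out a library relaxes the rule, so the number tends to rise by construction. It was 330 without resistant treated replicate 2 and 322 without parental untreated replicate 2.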

How the data were processed

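ATAC-seq libraries of parental and oxamate-resistant MIAPaCa2 cells were analysed from the authors' peak lists, grouped by sample title. The authors mapped reads with Bowtie2 version 2.1.0 to hg38, discarded duplicates, mitochondrial reads and reads without a unique position, and used MACS2 in paired-end mode to call broad peaks per library. The MACS2 version, genome size, control and blacklist are not given in the sources used here. The deposited lists give each peak's score, its fold over background (a linear ratio) and its −log10 p and −log10 q, without read counts. The score was not used, and presence of a peak was compared. Peaks outside chromosomes 1 to 22 and X (0.892% of 677901) were left out of the rule.

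Relative depth came from the background pileup that matched the commonest fold and −log10 p pair of each list, divided by the smallest width. Absolute depth is unknown. Distances to genes used the RefSeq gene table of GRCh38.p14 (59098 genes on these chromosomes) and promoters its promoter table, which has no window on chromosome 8. Treatment was tested with limma on the log2 of the deposited fold (two-sided, Benjamini-Hochberg over all regions of a fit) and tested on simulated data. Intervals are exact (Clopper-Pearson) and cover counting error only.

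Members were named by rank: the 20 strongest, the 15 strongest within 1 kb of a coding gene end, those at listed genes, genes with at least 2, the 5 strongest of the reverse set and those next to the threshold. Regions at promoter windows and in the chromosome 12 group were named after their values were seen. The rule, the members and the gene lists were chosen with earlier results of these data known, and the grouping by edges was made after seeing the data.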

Additional observations from a re-analysis of the deposited data

How the results depend on the processing

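The number of resistant-only regions (209) stayed within 1.5 times under the settings tried, at 205 to 309, except when libraries were left out, which gave 220 to 330 (330 without resistant treated replicate 2 and 322 without parental untreated replicate 2). The number of parental-only regions (46) became 28 with −log10 q of at least 3, 11 with peaks at least 124 bp wide, 30 where peaks had to cover 50% of a region, and 53 to 96 when a library was left out. It was 96 without parental untreated replicate 2 and 83 without resistant untreated replicate 2. Leaving out a library relaxes both rules, so both numbers tend to rise by construction. The share of resistant-only regions within 1 kb of a gene end (15.8%) became 30.4% with the 50% cover, 35.4% within 5 kb and 7.18% for coding genes only, and was 14.6% to 18.9% when a library was left out. Without the 11 regions with fixed edges 198 regions were left, 15.2% of them within 1 kb of a gene end, and with edges required to be identical or within 50 bp the 11 became 9 or 12. These last settings were chosen after seeing the data.

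Treatment calls in resistant cells were 0 under all alternatives, over all regions and over the resistant-only ones, leaving out each library included (limma, adjusted p under 0.05). In parental cells the 0 calls over all regions became 3164 without normalization (37 higher and 3127 lower), 13 with median centring (12 and 1), 33 with −log10 q (33 and 0) and 6 with the replicate block (6 and 0). Leaving out a library gave 0 to 34, with 34 without parental untreated replicate 3, 1 without parental treated replicate 1 and 2 without parental treated replicate 2. Of the parental-only regions 3, 1 and 1 were called without normalization, with median centring and with the replicate block, and 0 to 2 when a library was left out. The replicate numbers did not pair the libraries: deviations of same-numbered libraries correlated at 0.179, 0.261 and 0.0446 in resistant and −0.0453, 0.0148 and −0.0498 in parental cells. The cause of these shifts was not tested. Peak lists without counts limit all of this to called peaks.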

Other observations

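Outside chromosomes 1 to 22 and X the lists merged into 1315 regions. The same rule kept 0 of them as resistant-only and 2 as parental-only.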
